A study of Bos taurus with 6 samples.

Results

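The pentose phosphate pathway and the cytosolic enzymes that make NADPH beside it were followed by 8 genes, chosen by the function of their products: PGLS and PGD of the oxidative branch, RPIA, RPE, TKT and TALDO1 of the non-oxidative branch, and the NADPH-producing enzymes ME1 and IDH1. Each was found by its symbol and by its Entrez identifier among the 19163 genes of the count table, and all 8 were among the 13001 genes with enough counts to be tested. RNA-seq had been performed on F7, a single line of bovine embryonic stem cells derived from in vitro fertilized Holstein Friesian embryos, in 2 groups of 3 libraries that the labels place at 15 passages. MC-F7 (1M-F7 in the labels) was grown on mouse embryonic fibroblasts (MEFs) whose division had been stopped with mitomycin C, and MT-F7 on MEFs that had been killed and fixed with methanol. Both groups were kept in the same medium with FGF and the Wnt inhibitor IWR1, and in both the cells that stayed afloat on gelatin were collected to leave feeder cells behind. The study reports that a larger share of reads aligned to the bovine genome in MT-F7 than in MC-F7. It proposes that fixed feeders left less feeder contamination. By the study's methods the medium was changed every day in MC-F7 and every other day in MT-F7, so the feeder and the feeding schedule cannot be told apart. The study's statistics speak of technical replicates, and the sources used here do not say if these libraries are separate cultures, so the p values may measure technical spread only.

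The oxidative branch of the pathway turns glucose-6-phosphate into ribulose-5-phosphate and makes NADPH, the reducing power for fatty acid and sterol synthesis and for the glutathione and thioredoxin systems. The non-oxidative branch is reversible, supplies ribose-5-phosphate for nucleotides, and exchanges fructose-6-phosphate and glyceraldehyde-3-phosphate with glycolysis. Cytosolic malic enzyme (ME1) and cytosolic isocitrate dehydrogenase (IDH1) make NADPH from malate and from isocitrate. Rapidly dividing cells such as pluripotent stem cells are known to draw on these routes for lipids and nucleotides.

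Each library held 21958386 to 24933430 counted reads, and 3 counts, taken as the limit of detection, were 0.12 to 0.137 CPM (reads of a gene per 1000000 counted reads). Genes of the mitochondrial genome took 16.3% to 28.3% of the counts in MC-F7 and 17.95% to 27.9% in MT-F7, and in both groups replicate 3 had the highest share. Of 8 tested markers of pluripotent cells 7 passed the test and were lower in MT-F7, where their summed level (all detected genes of the list) was 881 to 1035 CPM against 1773 to 2605 CPM in MC-F7 (of all tested genes 23.2% were called, 11.3% lower and 11.9% higher). The summed level of 12 fibroblast markers was 224 to 302 CPM in MC-F7 and 343 to 396 CPM in MT-F7, with 3 of them higher and 1 lower by the same test. Most of this sum was COL1A1 (mean 205 CPM in MC-F7 and 268 CPM in MT-F7), which was not called (log2 fold change 0.39). Of the other lists, trophectoderm markers summed to 52.2 to 78.6 CPM in MC-F7 and 7.3 to 8.68 CPM in MT-F7, endoderm and mesoderm markers to 10.5 to 11.6 and 3.98 to 4.08 CPM, and neural markers to 481 to 555 and 601 to 667 CPM. Most of the neural sum came from NES (mean 312 and 412 CPM, log2 fold change 0.40) and TUBB3 (202 and 174 CPM, -0.22), neither of them called. Of 3 tested neural markers only MAP2 was called, and it was higher in MT-F7 (2.13). Nearly all of the trophectoderm sum was the keratin KRT7 (49.8 to 75.6 CPM in MC-F7 and 5.83 to 7.05 CPM in MT-F7), which was called lower. GATA2 was also called lower, from a low level (mean 1.11 and 0.341 CPM, log2 fold change -1.70). TFAP2C of that list was not called (log2 fold change -0.02) and GATA3 had too few counts to be tested. The trophectoderm factor CDX2 and the endoderm factor GATA4 had 0 counts in every library. The part of these cell markers, and of any mouse feeder RNA that aligned to the bovine genome, in the results below was not tested. In bulk RNA, fewer cells of a type and less RNA per cell cannot be told apart.

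PGD and ME1 fell in MT-F7, and the other 6 enzymes did not pass the test. Levels below are TMM-normalized CPM, and differences are log2 fold changes of MT-F7 against MC-F7 from edgeR's quasi-likelihood test (two-sided), with p values adjusted over the 13001 genes by the Benjamini-Hochberg method and a threshold of 0.05. By this rule 2 of the 8 enzymes were called, both lower and 0 higher. At an unadjusted p under 0.05 the counts were also 2 lower and 0 higher, with edgeR and with DESeq2. Among all tested genes 23.2% were called, 11.3% lower and 11.9% higher, so the share of called enzymes was near that of all genes. The CPM ranges of the groups did not overlap in 2 of the 8 enzymes, both lower in MT-F7, beside 20.1% of all tested genes without overlap and lower and 19.9% without overlap and higher. Of the 8 enzymes 4 had a log2 fold change below 0, beside 50.2% of all tested genes. The median log2 fold change of the 8 enzymes was -0.01, beside -0.0026 for all tested genes.

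**Figure D1:**
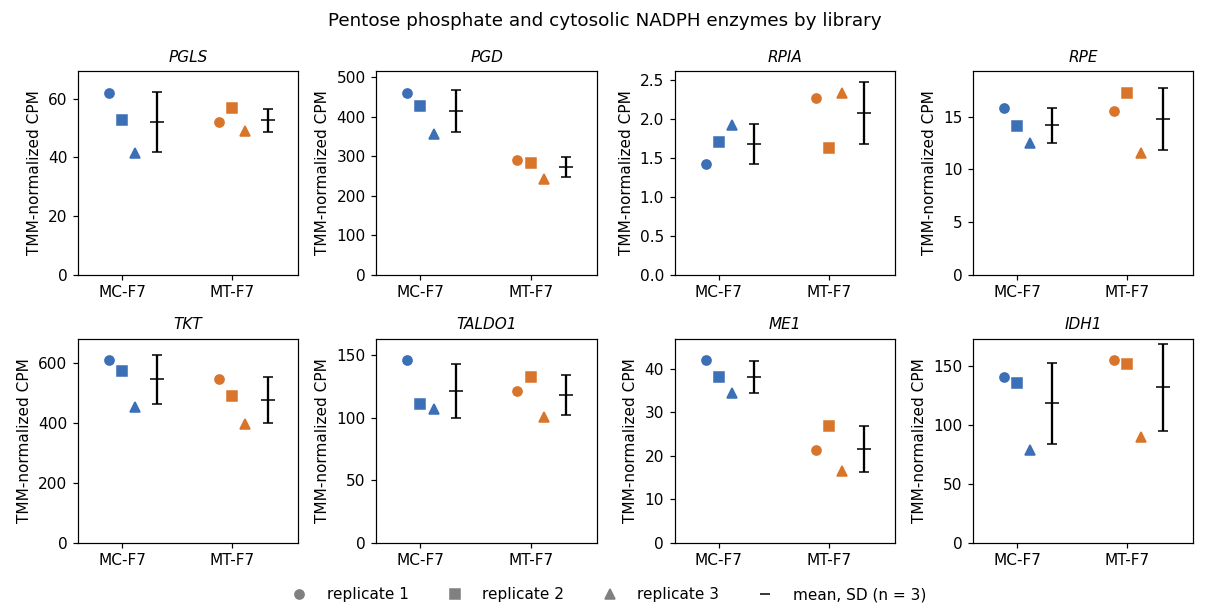
Level of each enzyme in each library, as TMM-normalized CPM on linear axes that start at 0. Points are single libraries, with the replicate number given by the marker, and the black bar gives the mean and SD of 3 libraries. The MT-F7 points lie below all MC-F7 points for PGD (243 to 291 against 356 to 461 CPM) and ME1 (16.4 to 26.9 against 34.4 to 41.9 CPM), and the groups overlap for the other 6 enzymes.

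PGLS (Entrez gene 616120) encodes 6-phosphogluconolactonase, which opens the lactone made by the entry step of the oxidative branch. Its level was 62.1, 52.8 and 41.5 CPM in the MC-F7 libraries and 52.2, 56.9 and 49.0 CPM in the MT-F7 libraries. The MT-F7 values lay inside the range of MC-F7, which held both the highest and the lowest library. The log2 fold change was 0.02 (standard error 0.17, adjusted p = 0.96), with a 95% interval of -0.35 to 0.38.

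PGD (514939) encodes 6-phosphogluconate dehydrogenase, the NADPH-making step that yields ribulose-5-phosphate. It was at 461, 427 and 356 CPM in MC-F7 and at 291, 284 and 243 CPM in MT-F7. Every MT-F7 library lay below every MC-F7 library, and replicate 3 was the lowest of both groups. The mean fell from 415 ± 53.4 to 273 ± 25.8 CPM (SD, n = 3). On the log2 scale the change was -0.61 (standard error 0.159, 95% interval -0.95 to -0.26, adjusted p = 0.015), so the level fell by 34.3%. Without MC-F7 replicate 2 the log2 fold change was -0.58 and the call was lost (adjusted p = 0.077). The call was also lost in limma tests of the deposited TPM values (log2 fold changes of -0.52 to -0.45, adjusted p = 0.084 to 0.13 under 4 settings). Of these limma tests only that on values rescaled to 1000000 per library (-0.52, adjusted p = 0.084) was scaled by library size.

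No gene of the non-oxidative branch was called, beside 23.2% of all tested genes. With so few genes this does not set the branch apart. RPIA (613376), the isomerase that makes ribose-5-phosphate, had the fewest reads of the 8 genes, with 32, 41 and 41 counts in MC-F7 and 57, 42 and 55 counts in MT-F7. These were 1.42, 1.7 and 1.92 CPM and 2.27, 1.62 and 2.34 CPM, so the groups overlapped through replicate 2 of MT-F7. At this depth the change of 0.31 on the log2 scale (standard error 0.319, adjusted p = 0.53) had a 95% interval from -0.38 to 1.0, which spans both a decrease and an increase.

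RPE (533764) encodes the epimerase that makes xylulose-5-phosphate from the same substrate. Its levels were 15.8, 14.1 and 12.5 CPM in MC-F7 and 15.5, 17.3 and 11.5 CPM in MT-F7. The lowest and the highest library were both MT-F7 libraries, and the log2 fold change of 0.06 had an interval of -0.36 to 0.48 (edgeR, adjusted p = 0.85).

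TKT (445425) encodes transketolase, which moves ketol units between sugar phosphates and needs thiamine pyrophosphate. Its level was 610.0, 576 and 453 CPM in MC-F7 and 548, 489.5 and 396 CPM in MT-F7. Only MT-F7 replicate 3 lay below all MC-F7 libraries, and the means were 547 ± 82.7 and 478 ± 76.6 CPM (SD, n = 3). The log2 fold change was -0.19 (standard error 0.177, adjusted p = 0.47), with an interval of -0.58 to 0.19.

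TALDO1 (513453) encodes transaldolase, which moves dihydroxyacetone units and forms fructose-6-phosphate. It was at 146, 111 and 107 CPM in MC-F7 and at 122, 133 and 101 CPM in MT-F7, with MC-F7 replicate 1 the highest and MT-F7 replicate 3 the lowest. The log2 fold change of -0.04 had an interval of -0.40 to 0.33 (edgeR, adjusted p = 0.90), and its sign turned under several settings.

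ME1 (540985), cytosolic malic enzyme, turns malate into pyruvate and makes NADPH. It was at 41.9, 38.1 and 34.4 CPM in MC-F7 and at 21.4, 26.9 and 16.4 CPM in MT-F7, from 387 to 947 counts per library. The groups did not overlap, and the mean fell from 38.1 ± 3.74 to 21.6 ± 5.23 CPM (SD, n = 3). On the log2 scale this was -0.82 (standard error 0.19, 95% interval -1.23 to -0.41, adjusted p = 0.0074), so the level fell by 43.4%, the largest change of the 8 genes in the test of all 6 libraries. It kept its call in each of the 6 fits that left out 1 library (log2 fold changes of -1.01 to -0.67), and lost it in 3 of the 4 limma tests on deposited TPM (-0.70 with adjusted p = 0.072, -0.68 with 0.091, and -0.46 with 0.098). The value of -0.70 came from TPM rescaled to 1000000 per library, and the other limma tests used TPM without scaling by library size.

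IDH1 (281235), cytosolic NADP-dependent isocitrate dehydrogenase, had the widest relative spread within groups of these enzymes. Its level was 141, 135 and 78.8 CPM in MC-F7 and 154, 151 and 89.3 CPM in MT-F7. Replicate 3 was far below the other two libraries in both groups, and the groups overlapped. The difference of 0.16 on the log2 scale (standard error 0.243, adjusted p = 0.69) had an interval of -0.37 to 0.68, and it was -0.07 when MC-F7 replicate 3 was left out.

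**Figure D2:**
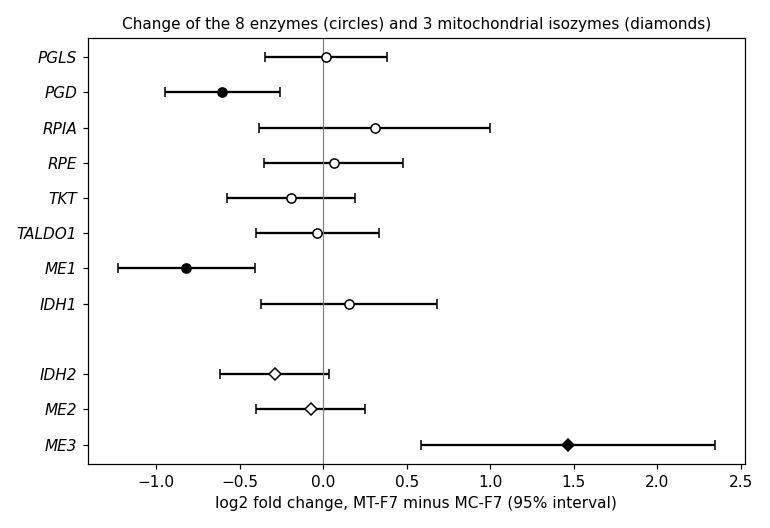
Log2 fold change of MT-F7 against MC-F7 with its 95% interval, for the 8 enzymes (circles) and 3 mitochondrial isozymes (diamonds). Filled symbols mark an adjusted p under 0.05. The intervals of PGD and ME1 lie below 0 and that of ME3 lies above it (0.58 to 2.34), while the other 8 intervals include 0.

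Replicate 3 was the lowest library of its group in both MC-F7 and MT-F7 for 7 of the 8 enzymes, all but RPIA. This held for 25.9% of all tested genes. The summed level of the 8 enzymes was 1479, 1357 and 1085 CPM in MC-F7 and 1206, 1160 and 908 CPM in MT-F7, so that MC-F7 replicate 3 lay below 2 of the MT-F7 libraries. The mitochondrial share of the counts was highest in these same replicates. Without replicate 3 of both groups, a setting chosen after this was seen, PGD had a log2 fold change of -0.61 (adjusted p = 0.0014) and ME1 of -0.71 (adjusted p = 0.0014), and the same 2 enzymes were called. With the genes of the mitochondrial genome removed before normalization, the values were -0.61 for PGD (adjusted p = 0.014) and -0.82 for ME1 (adjusted p = 0.0074).

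Levels of different genes were compared on a per-length scale, the deposited TPM values rescaled to 1000000 in each library. TKT was the most abundant of the 8 transcripts on this scale, at 249 ± 43.4 in MC-F7 against 230.1 ± 44.2 in MT-F7 (SD, n = 3). PGD was next with 208 ± 31.1 and 145 ± 19.4, then TALDO1 with 128 ± 22.4 and 132 ± 23.9. PGLS (55.6 ± 11.8 and 59.5 ± 7.14) and IDH1 (51.2 ± 16.0 and 60.4 ± 18.9) followed, then ME1 (15.0 ± 1.72 and 9.02 ± 2.57), RPE (5.64 ± 0.754 and 6.25 ± 1.51) and RPIA (1.8 ± 0.255 and 2.34 ± 0.375). Each neighbour in this order kept its place in all 6 libraries except PGLS and IDH1, which changed places and stood in this order in 3 of 6. PGD and TALDO1 came close in MT-F7, with 155, 156 and 122 for PGD beside 137, 153 and 106 for TALDO1. RPIA and RPE, whose products act on the ribulose-5-phosphate made by PGD, were the least abundant transcripts.

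As a share of the summed per-length level of the 8 transcripts, PGD took 29.2% ± 0.779 in MC-F7 against 22.6% ± 1.07 in MT-F7 (SD, n = 3). ME1 took 2.12% ± 0.135 and 1.39% ± 0.21. TKT held 34.8% ± 0.935 and 35.7% ± 1.72, TALDO1 17.97% ± 1.68 and 20.5% ± 1.07, PGLS 7.76% ± 0.364 and 9.31% ± 0.896, and IDH1 7.05% ± 1.2 and 9.21% ± 1.46. Because shares add up to a whole, the shares of the other genes are pushed up where that of PGD is smaller.

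Ratios of 2 enzymes within a library do not depend on how that library was scaled. On the per-length scale the ratio of PGD to TKT was 0.833, 0.816 and 0.867 in MC-F7 against 0.586, 0.638 and 0.677 in MT-F7. The ratio of PGD to TALDO1 was 1.5, 1.83 and 1.58 in MC-F7 against 1.14, 1.02 and 1.15 in MT-F7, and that of PGD to PGLS was 3.49, 3.8 and 4.03 against 2.62, 2.34 and 2.33. In these 3 ratios the groups did not overlap, and the ratio in MT-F7 was 0.755, 0.674 and 0.645 times that in MC-F7. The ratio of TALDO1 to TKT, both of the non-oxidative branch, overlapped between the groups (0.447 to 0.555 and 0.516 to 0.628).

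**Figure D3:**
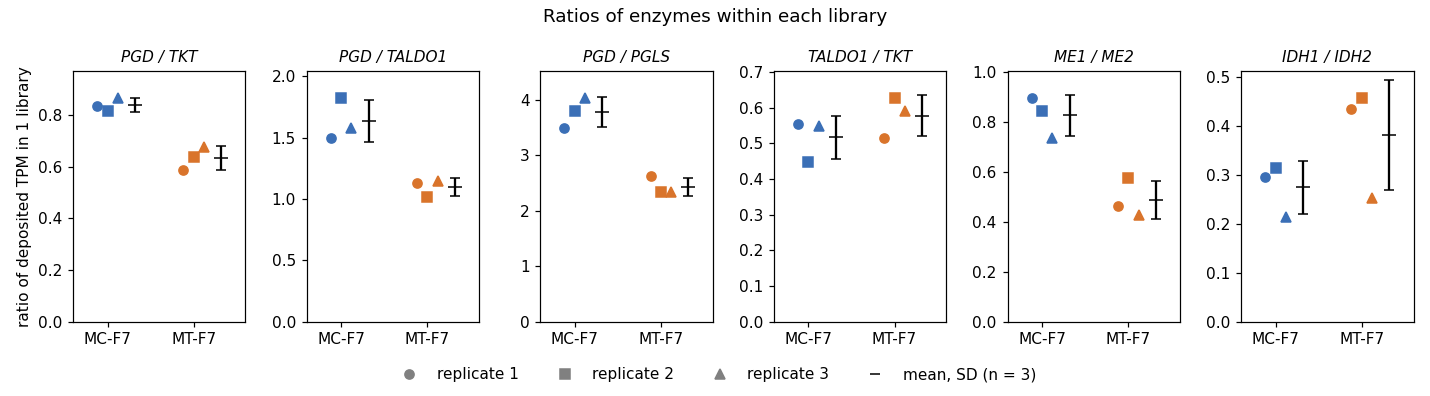
Ratio of the deposited TPM of 2 genes within each library (linear axes from 0), with the replicate number as the marker and the mean and SD of 3 libraries as the black bar. PGD relative to TKT, TALDO1 and PGLS and ME1 relative to ME2 are lower in all MT-F7 libraries than in any MC-F7 library, while TALDO1 relative to TKT and IDH1 relative to IDH2 overlap between the groups.

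The groups did not overlap in the ratios of 13 of the 28 possible pairs of these enzymes, beside 42.4% of all pairs of tested genes with counts in every library. PGD entered 6 of these and ME1 6, each against all enzymes but the other. These shares stand beside 61% of the ratios of PGD and 66.8% of the ratios of ME1 to every other tested gene (56.5% and 64.3% lower in MT-F7). Of the 15 pairs without PGD or ME1, the ratio of RPE to TKT was the only one without overlap, with a log2 difference of 0.24. ME1 and PGD did not separate from each other, with ratios of 0.0714, 0.07 and 0.0759 in MC-F7 against 0.0576, 0.0745 and 0.0531 in MT-F7.

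The mitochondrial counterparts of ME1 and IDH1 were followed in the same way. ME2 (507817), the mitochondrial malic enzyme that prefers NAD, was at 32.96, 31.8 and 33.02 CPM in MC-F7 and 32.4, 33.1 and 27.3 CPM in MT-F7. The groups overlapped, and the log2 fold change was -0.08 (edgeR, adjusted p = 0.76, 95% interval -0.40 to 0.25). ME3 (525813), the mitochondrial NADP-dependent form, rose from a low level, with 28, 15 and 31 counts in MC-F7 and 52, 117 and 59 counts in MT-F7. This was 1.1 ± 0.43 and 3.03 ± 1.31 CPM (SD, n = 3), higher by 1.46 on the log2 scale (standard error 0.406, edgeR, adjusted p = 0.02). MT-F7 replicate 2 was well above the other two MT-F7 libraries. The call was lost without that library (log2 fold change 1.06, adjusted p = 0.12) and without MC-F7 replicate 2 (1.17, adjusted p = 0.088). It was also lost in the 3 limma tests on deposited TPM that held ME3 (0.26, 1.01 and 0.81 on the log2 scale with adjusted p = 0.085, 0.052 and 0.063). On the per-length scale ME3 stayed far below ME1 in both groups, at 0.682 ± 0.246 and 2.02 ± 0.945.

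The ratio of ME1 to ME2 was tested as 1 value per library. Its log2 value in counts was 0.35, 0.26 and 0.06 in MC-F7 against -0.60, -0.30 and -0.73 in MT-F7. The groups did not overlap, and the difference of -0.77 had p = 0.1 by an exact permutation test (two-sided), the smallest that 3 libraries against 3 allow. IDH2 (327669), the mitochondrial NADP-dependent isocitrate dehydrogenase, was at 275, 249.9 and 214 CPM in MC-F7 and 206, 192 and 205 CPM in MT-F7. These ranges did not overlap, as in 40% of all tested genes, but its log2 fold change of -0.29 did not pass (edgeR, adjusted p = 0.18, 95% interval -0.62 to 0.03), although it passed without replicate 3 of both groups (-0.38, adjusted p = 0.021). The log2 ratio of IDH1 to IDH2 was -0.97, -0.88 and -1.44 in MC-F7 against -0.42, -0.34 and -1.2 in MT-F7, with replicate 3 the lowest of each group. The difference of 0.44 had p = 0.3 by the exact permutation test (two-sided).

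The libraries of PGD and ME1 were compared with those of 11915 other tested genes whose mean level was 1 CPM or more. By Pearson's r of log2 CPM over the 6 libraries, the genes most like PGD were EPCAM (r = 0.998), an epithelial adhesion molecule also used here as a marker of pluripotent cells, ACBD6 (0.998) and the glycolytic enzyme PKM (0.997). For ME1 they included CDADC1 (0.996) and the ribosome assembly kinase RIOK2 (0.995). The 6 points share the group difference and the low replicate 3, and r was at least 0.95 for 397 genes (3.33%) with PGD and for 312 (2.62%) with ME1. EPCAM and PKM had log2 fold changes of -1.18 and -0.63, and RIOK2 of -0.56.

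The genes around the pathway were described from lists of textbook members, beside the 23.2% called among all tested genes. Of 14 side reaction genes, 11 were tested, and 1 rose and 1 fell (median log2 fold change -0.18, range -1.84 to 1.02). TKTL1 (507517), a transketolase-like gene, was at 22.6, 19.0 and 15.1 CPM in MC-F7 and 5.78, 6.03 and 3.99 CPM in MT-F7. The groups did not overlap, and the change of -1.84 on the log2 scale (standard error 0.22, edgeR, adjusted p = 7.9e-05) was larger than that of any of the 8 enzymes. The gluconokinase gene IDNK, whose product makes 6-phosphogluconate from gluconate, rose from 3.46 ± 0.285 to 7.02 ± 0.378 CPM, or by 1.02 on the log2 scale (edgeR, adjusted p = 0.0041). Both were called in each of the 6 fits that left out 1 library. PRPS1, which makes the activated ribose for nucleotides, was at 83.8 ± 16.0 and 57.8 ± 13.6 CPM and was not called (log2 fold change -0.54, adjusted p = 0.073). The list held 4 called genes without MC-F7 replicate 3 and 5 without replicate 3 of both groups.

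The list called upper glycolysis here held enzymes around fructose-6-phosphate and glyceraldehyde-3-phosphate, which glycolysis shares with the non-oxidative branch. It included GAPDH, which follows upper glycolysis, and the fructose bisphosphatases FBP1 and FBP2. This list differed from the 8 enzymes in its counts. Of 11 tested genes 8 fell and 0 rose (9 had an unadjusted p under 0.05 in the same edgeR test), and the median log2 fold change was -1.18. The hexokinase HK2 fell from 10.7 ± 3.64 to 2.06 ± 0.784 CPM (log2 fold change -2.38). PFKL, the liver-type phosphofructokinase, fell from 605 ± 95.9 to 175 ± 14.9 CPM (-1.79). ALDOA, an aldolase, and GAPDH, the dehydrogenase of glyceraldehyde-3-phosphate, had log2 fold changes of -1.51 and -1.24. PFKM was not called (-0.0028), and neither was FBP1 (-1.18, edgeR, adjusted p = 0.14). TPI1, with 3 to 9 counts in any library, and FBP2, with 0 counts, were not tested. Whether the few TPI1 counts reflect its level or how its reads were assigned was not examined, so they are not read as absence. Reads of genes with near-identical copies, as GAPDH has, cannot be assigned with certainty. The difference between these genes and the 8 enzymes was not tested.

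Genes listed as other makers of NADPH or NADP were called in a share near that of all tested genes (23.2%). The list was broad, and some of its enzymes, such as ME2 and MTHFD2, prefer NAD. Of 12 tested genes ME3 rose and MTHFD2 fell, with a median log2 fold change of -0.23. MTHFD2, a mitochondrial enzyme of folate metabolism, was at 13.6 ± 1.16 and 8.09 ± 2.48 CPM (log2 fold change -0.74, edgeR, adjusted p = 0.032), and was called in 2 of 6 fits that left out 1 library (adjusted p = 0.084, 0.079, 0.072 and 0.06 without MC-F7 replicates 1 and 2 and MT-F7 replicates 1 and 3). The list held 1 called gene without MT-F7 replicate 1 or 2, 0 without MC-F7 replicate 2 (3 at an unadjusted p under 0.05 in the same edgeR test) and 5 without replicate 3 of both groups. The NAD kinases NADK and NADK2 and the transhydrogenase NNT had log2 fold changes of -0.22, -0.25 and -0.01, none of them called.

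Among users of NADPH, 3 of 13 tested genes fell and 0 rose (median log2 fold change 0.08). They were BLVRB, a biliverdin reductase (141 ± 23.2 to 76.4 ± 6.44 CPM, log2 fold change -0.88), TXNRD1, the cytosolic thioredoxin reductase (39.3 ± 3.24 to 23.3 ± 2.76 CPM, -0.76), and GSR, the glutathione reductase (47.5 ± 8.82 to 30.6 ± 4.81 CPM, -0.64). GSR lost its call without MC-F7 replicates 1 and 2 and MT-F7 replicate 2 in turn (edgeR, adjusted p = 0.072, 0.12 and 0.072). The fatty acid synthase FASN and the sterol enzymes SQLE and DHCR7 did not pass the test, with log2 fold changes of -0.27, 0.08 and 0.12.

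Synthesis of purines and pyrimidines, which consumes ribose-5-phosphate, had 3 genes that fell and 0 that rose among 13 tested (median log2 fold change -0.36). ADSS2 fell from 37.7 ± 0.653 to 22.9 ± 0.51 CPM, PPAT, the first enzyme of purine synthesis, from 61.8 ± 3.98 to 39.7 ± 5.45 CPM, and UMPS from 43.3 ± 5.78 to 28.5 ± 4.94 CPM. Their log2 fold changes were -0.72, -0.64 and -0.60. UMPS lost its call without MC-F7 replicates 1 and 2 and MT-F7 replicate 3 in turn (edgeR, adjusted p = 0.075, 0.12 and 0.05024). The count was 5 without MC-F7 replicate 3, with 4 lower and 1 higher, and 8 without replicate 3 of both groups, with 7 lower and 1 higher.

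NFE2L2 is a transcription factor known to raise genes of the pentose phosphate pathway, ME1 and glutathione synthesis under oxidative stress. Of 11 tested genes of its list 3 fell and 1 rose, with a median log2 fold change of -0.36. HMOX1, the heme oxygenase, fell from 54.7 ± 22.5 to 13.2 ± 1.49 CPM (-2.05), GCLC, the catalytic subunit that makes the glutathione precursor, from 67.5 ± 2.72 to 34.5 ± 0.747 CPM (-0.97), and TXNRD1 is given above. OSGIN1 rose from 19.2 ± 2.89 to 32.4 ± 8.1 CPM (0.76), a call lost without MC-F7 replicates 1 and 2 in turn (edgeR, adjusted p = 0.051 and 0.067). NFE2L2 itself was at 42.3, 46.7 and 52.7 CPM in MC-F7 and 36.4, 35.8 and 31.3 CPM in MT-F7, without overlap and just outside the threshold (log2 fold change -0.45, adjusted p = 0.05024).

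The malate and citrate shuttle, which brings the substrates of ME1 and IDH1 to the cytosol, had 3 genes that fell and 1 that rose among 10 tested (median log2 fold change -0.24). MDH2 (-0.63), the aspartate aminotransferase GOT1 (-0.60) and the dicarboxylate carrier SLC25A10 (-0.54) were lower, and the cytosolic aconitase ACO1, which makes isocitrate, was higher (58.9 ± 6.18 to 91.0 ± 7.56 CPM, 0.63). Without MC-F7 replicate 2 the list held 0 called genes, where 4 had an unadjusted p under 0.05 in the same edgeR test, and 2 genes were called without MC-F7 replicate 1 or MT-F7 replicate 2 and 6 without replicate 3 of both groups. The citrate carrier SLC25A1 and the citrate lyase ACLY had log2 fold changes of 0.02 and -0.01.

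**Figure D4:**
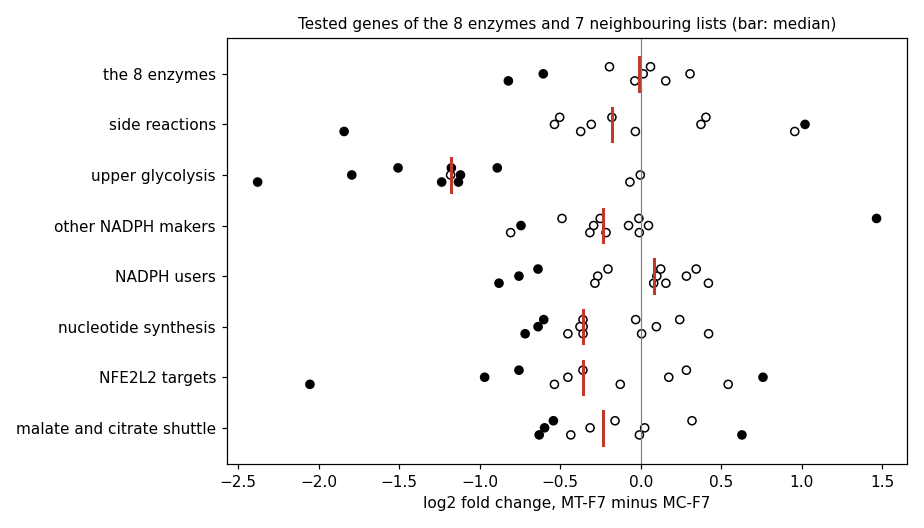
Log2 fold change of MT-F7 against MC-F7 for each tested gene of the 8 enzymes and of 7 neighbouring lists, with the median of each as a red bar. Filled points have an adjusted p under 0.05, and points are moved up or down only to keep them apart. The median of upper glycolysis lies at -1.18 and the other 7 medians lie between -0.36 and 0.08.

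The direction of the change did not depend on the way of testing for PGD, ME1, TKT and RPIA, which kept their sign under all settings tried. Over the 20 alternatives PGD was called in 14 and ME1 in 16, with log2 fold changes of -0.71 to -0.45 and -1.01 to -0.46. PGLS, RPE, TALDO1 and IDH1 turned their sign in at least 1 alternative and were called in none.

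**Figure D5:**
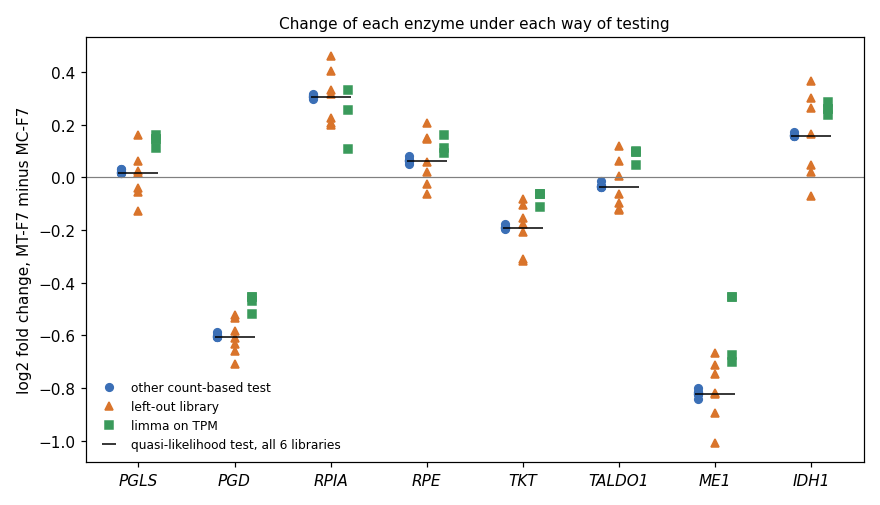
Log2 fold change of each enzyme under each way of testing. The black line is the quasi-likelihood test of all 6 libraries, blue circles are other tests on counts, orange triangles leave out 1 library or replicate 3 of both groups, and green squares are limma on deposited TPM. The points of PGD and ME1 all lie below 0, from -0.71 to -0.45 and from -1.01 to -0.46, and those of PGLS, RPE, TALDO1 and IDH1 lie on both sides of 0.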

How the data were processed

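The authors filtered paired-end reads, aligned them to Bos taurus (Ensembl) with HISAT2 (2.0.5 in the submitters' processing notes) and deposited raw counts per Entrez gene made with featureCounts (1.5.0-p3). The genome build is not given in the sources used here, so no coordinates are printed. The authors also deposited TPM values, which kept 1 ratio to the counts in all libraries (within 0.01 of each other, for 9695 of 9710 genes that had 50 or more counts in each library). These values therefore hold no scaling by library size, and they were rescaled to 1000000 per library for levels between genes. Symbols came from a RefSeq gene table, which matched 19074 of 19163 Entrez identifiers. H6PD, RPEL1, SOX1, SOX2 and LIN28B of the lists were not analysed here.

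Low genes were removed with filterByExpr (minimum count 10 and minimum total 15), and the rest were normalized by TMM and tested with edgeR 4.0.16 in R 4.3.3, without a block. Alternatives used DESeq2 1.42.0 and limma 3.58.1 (log2(TPM + 1) and log2(TPM + 0.1), whose fold changes understate the change of low genes). The steps were also run on simulated counts, with planted changes larger than those of PGD and ME1 and no shift of replicate 3. That run does not measure how well changes of their size are found. Named genes were the 8 enzymes, IDH2, ME2 and ME3, up to 4 called genes with the largest change in each list (genes that were not called are named as further values, chosen after they were seen), and for each called enzyme the 3 genes with the highest r. Some genes that these rules name are not reported here. Marker lists are given by their sums and counts. The enzymes and lists were chosen with earlier results of these data known. Intervals and limits of detection cover these libraries and counting error only.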

Additional observations from a re-analysis of the deposited data

How the results depend on the processing

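PGD and ME1 stayed lower in MT-F7 under every alternative tried. The count of called enzymes was 1 without MC-F7 replicate 2 and 2 in the other fits that left out 1 library (1 to 2), 0 with limma on log2(TPM + 1), on log2(TPM + 0.1) and on values rescaled to 1000000, 1 on log2(TPM + 1) where the mean TPM was 1 or more (6 of the 8 enzymes tested), and 0 with an absolute log2 fold change over 1. In each limma test 2 enzymes had an unadjusted p under 0.05. Of 3016 genes called in all, the count was 1914 to 3093 with 1 library left out (1914 without MC-F7 replicate 2), 4674 with the replicate number as a block, 1399 with limma where the mean TPM was 1 or more and 1489 with an absolute log2 fold change over 1. Limma on log2(TPM + 1) split its calls into 1547 higher and 820 lower, on log2(TPM + 0.1) into 1581 and 845 and with the limit on mean TPM into 948 and 451, beside 1553 and 1463 in the quasi-likelihood test. On log2(TPM + 0.1) the median of all genes moved to 0.11. These limma settings used deposited TPM, which hold no scaling by library size. Every MT-F7 library held more counted reads (24271208 to 24933430) than any MC-F7 library (21958386 to 23414319). With limma on values rescaled to 1000000 the split was 1421 higher and 960 lower, and the median was 0.061. Signs turned in values that were not called. Without MC-F7 replicate 3, PGLS was at -0.13, RPE at -0.025 and IDH1 at -0.072, and without MT-F7 replicate 2, PGLS was at -0.040 and RPE at -0.064. TALDO1 was at 0.12 without MC-F7 replicate 1 and at 0.062 without MT-F7 replicate 3. With 1 library left out the ranges were -0.13 to 0.16 for PGLS, -0.064 to 0.20 for RPE, -0.12 to 0.12 for TALDO1, -0.072 to 0.37 for IDH1 and -0.12 to -1.2e-05 for ME2. With limma on log2(TPM + 1), with and without the limit on mean TPM, TALDO1 was at 0.094 and ME2 at 0.039, on log2(TPM + 0.1) at 0.098 and 0.048, and on rescaled values at 0.048 and 2.0e-04. Without replicate 3 of both groups PGLS was at -0.057, TALDO1 at 0.0032 and ME2 at 0.033, and 4242 genes were called in all. The difference in the log2 ratio was 0.27 to 0.72 for IDH1 to IDH2 and -0.89 to -0.67 for ME1 to ME2 with 1 library left out. The causes of these shifts were not tested.

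The replicate numbers were not taken to pair the libraries: the correlation across genes of their deviations from the group means was 0.127, 0.041 and 0.392 for replicates 1, 2 and 3, and replicate 2 of MC-F7 correlated better with replicate 1 of MT-F7 (0.257). Replicate 3 of each group correlated best with replicate 3 of the other. With the replicate block PGD had a log2 fold change of -0.60 (edgeR, adjusted p = 8.5e-04) and ME1 of -0.84 (adjusted p = 5.9e-05), and the same 2 enzymes were called. The block moved the called genes from 2 to 5 among side reactions (2 higher, 3 lower), from 3 to 5 among users of NADPH (2 higher, 3 lower) and from 3 to 9 in nucleotide synthesis (1 higher, 8 lower). With an absolute log2 fold change over 1 the counts were 0 for users of NADPH, nucleotide synthesis and the shuttle, and 1 each for NFE2L2 and the other makers of NADPH. RPIA, with 32 to 57 counts, is the enzyme in which depth limits the comparison most.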
